A study of Mus musculus with 18 samples.

Results

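The 10 genes described here mark the endothelial cells that line the sinusoids, the capillaries of the liver: Stab1, Stab2, Lyve1, Kdr, Clec4g, Flt4, Fcgr2b, Gpr182, Pecam1 and Cdh5. They were chosen as a list of known markers, with earlier results of these data known. They were matched to the count files through their Ensembl identifiers and followed over every library of the series. All 10 were present among the 34937 genes of the files, and all 10 were among the 17789 genes with enough counts to be tested.

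Sinusoidal endothelium has pores and no continuous basement membrane, and it clears waste molecules from the blood by endocytosis. Stabilins, C-type lectins, hyaluronan receptors and an Fc receptor carry out that clearance, receptors of vascular endothelial growth factors (VEGF) maintain the cells, and junction proteins hold them together. Pecam1 and Cdh5 are shared with endothelium of every vessel. Several of the others are also made elsewhere: Stab1 and Lyve1 by some macrophages, Fcgr2b by B cells and macrophages, Flt4 and Lyve1 by lymphatic vessels, and Pecam1 by platelets and leukocytes.

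The study profiled poly-A RNA of whole livers, with 18 mice in 6 groups of 3, 1 library per mouse and single reads of 50 bases. Every mouse received carbon tetrachloride in oil, an intraperitoneal dose of 0.5 µL per g body weight, which kills the hepatocytes near central veins. The MycER protein joins MYC to part of the estrogen receptor, so that tamoxifen, injected intraperitoneally every day at 1 mg, switches it on. Group 12ON was taken 12 days after injury with MycER activated. Groups 1OFF, 2OFF, 3OFF and 7OFF are labelled as taken 1, 2, 3 and 7 days after injury with no activation, and group 12 as taken at 12 days with no activation. Whether the OFF mice had had active MycER before is not stated in the labels, nor which promoter or cell type drives it, whether group 12 received tamoxifen, or the strain, sex and age. The design text sets 12ON against 12, and then each OFF group against 12ON. By the labels the OFF groups differ from 12ON in both the day after injury and activation, which cannot be told apart in these comparisons. From group 12 they differ by the labels in the day. Any earlier activation of MycER in the OFF mice, which the labels leave unstated, cannot be told apart from the day there.

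The libraries held 23.1 to 75.3 M counts, and the 10 genes had raw counts of 326 to 5226 in each library, so that each was detected in all 18. The share of counts on the mitochondrial chromosome ranged over 6.42% to 7.11% for 12ON libraries, 5.36% to 7.33% for OFF libraries and 4.80% to 5.25% for group 12. Xist, the RNA that coats an inactive X chromosome, was high in 1 library of every group except 1OFF, where it was low in all. Levels below are CPM after TMM scaling (normalised CPM), in which the median gene is held about level between groups. The TMM factors were 1.16 to 1.24 in 12ON and 0.790 to 0.918 in group 12, so plain CPM, which uses library totals only, gives smaller falls between these groups. Within a group, values are listed in the order of replicates 1, 2 and 3, means carry SD, and log2 fold changes carry standard errors (n = 3 mice in each group). A gene is called higher or lower where its Benjamini-Hochberg adjusted p over all tested genes, in the quasi-likelihood test of edgeR, is under 0.05. A gene said to rise or fall stood higher or lower than in the group named, which holds other mice.

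The first comparison asked how livers with active MycER differed from livers at the same day without it. Every one of the 10 sinusoidal genes was lower in 12ON livers, with no overlap between the 3 libraries of 12ON and the 3 of group 12 for any of them. The fall was 2.67-fold for Flt4 and 2.51-fold for Kdr, the VEGF receptors, between 1.94 and 2.25-fold for Clec4g, Gpr182, Cdh5 and Fcgr2b, and between 1.503 and 1.78-fold for Pecam1, Stab2, Lyve1 and Stab1. All 10 passed the test as lower, where 22.5% of all tested genes were called lower and 23.8% higher. Ranges that lay wholly below were found for 28.2% of all tested genes. The median log2 fold change of the 10 was -0.999, beside 0.00 over all tested genes. In bulk liver RNA, fewer sinusoidal cells, less of each RNA per cell and a larger share of RNA from other cells cannot be told apart.

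The scaling sets how large this fall is. With library totals only, the median log2 fold change of the 10 was -0.51 while that of all genes stood at 0.49. All 10 values were still below 0, and 6 of the 10 passed the test as lower, where 7.87% of all genes did. Stab1, Stab2, Lyve1 and Pecam1 were the 4 that did not, with adjusted p-values of 0.511, 0.114, 0.124 and 0.0630. When the mitochondrial share entered the fit as a term, 8 of the 10 passed as lower, where 9.88% of all genes did, and Lyve1 (adjusted p = 0.0961) and Flt4 (adjusted p = 0.0779) did not. The part of the mitochondrial share in the fall was otherwise not tested.

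**Figure D1:**
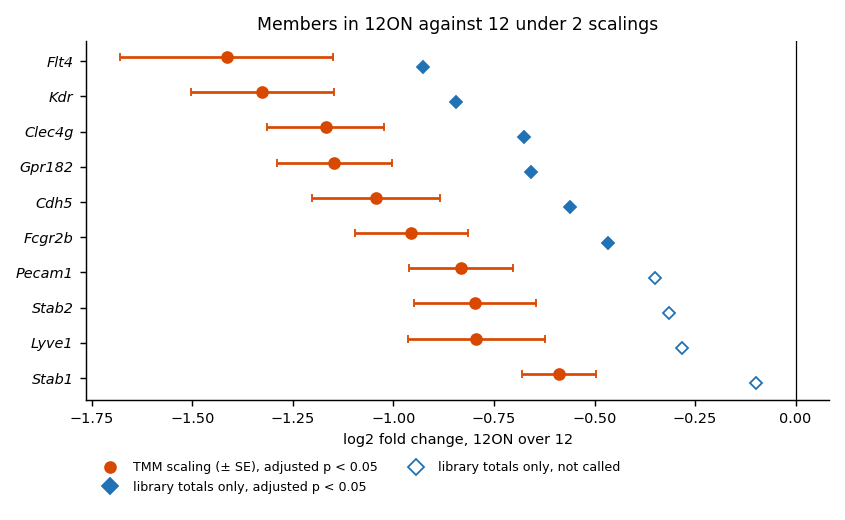
Log2 fold change of each sinusoidal gene in 12ON livers relative to group 12, with TMM scaling (circles, with the standard error as a bar) and with library totals only (diamonds, filled where the gene passed the test). All 10 points lie below 0 under both scalings, between -0.59 and -1.42 with TMM and between -0.10 and -0.93 with library totals.

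Promoter windows of RefSeq (GRCm38.p6, 250 bases before to 50 after the annotated start) were matched for 6 of the 10 genes. Those of Stab1, Kdr and Clec4g are shown because their starts lie within 3 bases of the Ensembl starts and because these genes fell by the least, by over 2.5-fold and to an intermediate degree in 12ON livers. Capitals mark CAGGAAG, a motif of the ETS family of endothelial transcription factors, searched on both strands.
Stab1 promoter (chr14:31168592-31168891, minus strand): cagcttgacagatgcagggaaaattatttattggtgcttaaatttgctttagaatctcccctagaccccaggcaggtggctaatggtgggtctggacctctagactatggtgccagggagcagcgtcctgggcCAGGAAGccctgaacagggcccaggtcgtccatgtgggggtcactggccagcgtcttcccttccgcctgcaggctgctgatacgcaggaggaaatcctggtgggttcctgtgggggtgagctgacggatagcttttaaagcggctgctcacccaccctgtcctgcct
Kdr promoter (chr5:75978406-75978705, minus strand): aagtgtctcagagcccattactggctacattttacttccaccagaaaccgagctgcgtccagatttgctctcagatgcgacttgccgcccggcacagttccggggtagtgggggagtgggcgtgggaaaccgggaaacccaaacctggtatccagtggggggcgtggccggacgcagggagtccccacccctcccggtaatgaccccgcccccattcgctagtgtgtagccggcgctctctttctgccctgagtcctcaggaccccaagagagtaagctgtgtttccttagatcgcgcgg
Clec4g promoter (chr8:3720602-3720901, minus strand): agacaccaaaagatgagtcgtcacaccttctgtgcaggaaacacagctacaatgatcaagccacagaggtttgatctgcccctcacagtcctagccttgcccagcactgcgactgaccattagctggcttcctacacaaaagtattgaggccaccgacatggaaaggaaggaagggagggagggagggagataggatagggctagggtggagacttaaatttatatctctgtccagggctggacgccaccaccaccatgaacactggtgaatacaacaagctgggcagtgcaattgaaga
CAGGAAG was found in the Stab1 window alone among the 6, and in 13.3% of 32851 windows of the same length. AGATAA, a motif of the GATA family, and CACGTG, the E-box that MYC binds, were in none of the 6 windows, against 11.2% and 7.15% of all windows.

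Among the scavenger receptors, Stab1 (ENSMUSG00000042286, chromosome 14, 31139013 to 31168641 in GRCm38, minus strand) encodes stabilin-1, an endocytic receptor for modified proteins. It measured 48.9, 50.6 and 47.1 normalised CPM in 12ON livers, against 69.3, 70.0 and 80.8 in group 12, a log2 fold change of -0.59 ± 0.09 (adjusted p = 9.98e-05). The OFF livers held 60.4, 53.4 and 57.2 CPM in 1OFF, 65.5, 57.2 and 64.4 in 2OFF, 59.95, 59.00 and 66.8 in 3OFF and 53.2, 61.8 and 63.6 in 7OFF. All 12 OFF libraries therefore lay above every 12ON library and below every library of group 12. Against 12ON, Stab1 rose in 3OFF (log2 fold change 0.34 ± 0.09, adjusted p = 0.0101) and in 7OFF (0.29 ± 0.09, adjusted p = 0.0192). The first call ended without 12ON replicate 3 or 3OFF replicate 3 (adjusted p up to 0.0562), and the second without 12ON replicate 1 or 3 or 7OFF replicate 2 or 3 (up to 0.0901). In plain CPM the groups overlapped, with 56.5, 62.9 and 55.6 in 12ON and 57.9, 55.3 and 74.2 in group 12. Stab1 shares 109 of its 10288 exonic bases with Nt5dc2, and reads there were counted for both. The counts of Nt5dc2 were 8.6% to 63.4% of those of Stab1 over the 18 libraries. How many reads lay in the shared bases was not tested, here or for the overlaps below.

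Stab2 (ENSMUSG00000035459, chromosome 10, 86841198 to 87008025, minus strand) encodes stabilin-2, which takes hyaluronan out of the blood. It stood at 43.7, 37.0 and 46.4 normalised CPM in 12ON livers, against 72.2, 66.3 and 82.3 in group 12 (log2 fold change -0.80 ± 0.15, adjusted p = 0.000520). In the OFF groups it stood at 54.9, 54.2 and 66.6 CPM in 1OFF, 64.5, 50.6 and 77.4 in 2OFF, 79.1, 75.5 and 74.3 in 3OFF and 51.3, 65.3 and 72.1 in 7OFF. No OFF library reached down into the range of 12ON, and the 3OFF libraries lay within the range of group 12. Stab2 rose against 12ON in 3OFF (0.85 ± 0.15, adjusted p = 0.000791) and in 7OFF (0.57 ± 0.15, adjusted p = 0.00653). Of the 10 genes it had the level in 3OFF nearest to that of group 12, with a log2 difference of 0.05 ± 0.15 (adjusted p = 0.858). Stab2 shares 141 of its 8757 exonic bases with Gm16268, whose counts were 2.7% to 4.0% of those of Stab2.

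Lyve1 (ENSMUSG00000030787, chromosome 7, 110850607 to 110862953, minus strand) encodes a hyaluronan receptor. It had the lowest CPM of the 10 genes in 12ON livers, at 10.9, 12.5 and 11.5 normalised CPM, against 16.9, 26.7 and 16.8 in group 12 (log2 fold change -0.79 ± 0.17, adjusted p = 0.00128). Replicate 2 of group 12 stood well above the other 2, and without it the log2 fold change was -0.54. The OFF groups held 14.1, 18.5 and 18.6 CPM in 1OFF, 15.8, 17.6 and 16.2 in 2OFF, 16.02, 17.7 and 19.2 in 3OFF and 17.2, 15.2 and 12.1 in 7OFF. The libraries of 1OFF, 2OFF and 3OFF all lay above those of 12ON, and 7OFF overlapped it through replicate 3. Only 3OFF passed the test against 12ON (0.60 ± 0.17, adjusted p = 0.0133), and not without 12ON replicate 1 or 3OFF replicate 3 (adjusted p up to 0.0523). The 7OFF difference from 12ON was 0.35 ± 0.17 (adjusted p = 0.110), which passed without 12 replicate 2 or 7OFF replicate 3 (adjusted p down to 0.0428).

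Clec4g (ENSMUSG00000074491, chromosome 8, 3707064 to 3720651, minus strand) encodes the lectin LSECtin, which binds glycans on pathogens and on activated T cells. It measured 33.0, 38.4 and 32.2 normalised CPM in 12ON livers, against 77.2, 75.2 and 80.5 in group 12 (log2 fold change -1.17 ± 0.15, adjusted p = 1.39e-05). Its values were 40.5, 39.8 and 32.3 CPM in 1OFF, 37.5, 26.7 and 39.9 in 2OFF, 41.1, 49.9 and 58.0 in 3OFF and 56.5, 61.0 and 63.3 in 7OFF. The 1OFF and 2OFF libraries overlapped those of 12ON, the 3OFF and 7OFF libraries lay above them, and all 12 stayed below group 12. Clec4g differed from 12ON by 0.12 ± 0.14 on the log2 scale in 1OFF and by 0.01 ± 0.14 in 2OFF, which are the smallest differences of the 10 genes there and turn below 0 with library totals only. It rose in 3OFF by 0.52 ± 0.14 (adjusted p = 0.0118) and in 7OFF by 0.80 ± 0.14 (adjusted p = 0.000362). The 3OFF call ended without 12ON replicate 3 or 3OFF replicate 3 (adjusted p up to 0.0682). Clec4g shares 146 of its 2462 exonic bases with Gm16553, whose counts were 13.1% to 16.2% of those of Clec4g.

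Fcgr2b (ENSMUSG00000026656, chromosome 1, 170958617 to 170976547, minus strand) encodes an inhibitory Fc receptor for IgG, with which sinusoidal cells remove small immune complexes. It stood at 28.9, 31.3 and 29.8 normalised CPM in 12ON livers, against 59.8, 52.7 and 62.1 in group 12 (log2 fold change -0.96 ± 0.14, adjusted p = 5.57e-05). The OFF libraries held 37.96, 33.5 and 32.2 CPM in 1OFF, 38.7, 26.4 and 36.5 in 2OFF, 39.4, 42.8 and 53.9 in 3OFF and 49.9, 59.8 and 59.1 in 7OFF. Its 7OFF libraries overlapped the range of group 12, and replicate 2 of 2OFF was the lowest of the 18. Fcgr2b rose against 12ON in 3OFF (0.60 ± 0.14, adjusted p = 0.00431) and in 7OFF (0.91 ± 0.14, adjusted p = 9.78e-05). The difference between 7OFF and group 12 was -0.05 ± 0.14 (adjusted p = 0.879). Fcgr2b shares 155 of its 5790 exonic bases with Gm38204, whose counts were 0.07% to 0.66% of those of Fcgr2b.

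Among the VEGF receptors, Kdr (ENSMUSG00000062960, chromosome 5, 75932827 to 75978458, minus strand) encodes the main signalling receptor for Vegfa. It measured 30.2, 25.7 and 29.4 normalised CPM in 12ON livers, against 70.4, 64.0 and 79.5 in group 12 (log2 fold change -1.33 ± 0.18, adjusted p = 2.66e-05). Its values were 39.5, 35.0 and 40.4 CPM in 1OFF, 44.0, 25.7 and 43.8 in 2OFF, 45.4, 51.3 and 60.3 in 3OFF and 48.7, 62.9 and 64.2 in 7OFF. The 1OFF libraries lay above 12ON, as did those of 3OFF and 7OFF, while 2OFF replicate 2 stood at the 12ON level and the other 2OFF libraries above it. Kdr rose against 12ON in 3OFF (0.88 ± 0.18, adjusted p = 0.00161) and in 7OFF (1.04 ± 0.18, adjusted p = 0.000217).

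Flt4 (ENSMUSG00000020357, chromosome 11, 49609263 to 49652739, plus strand) encodes the receptor for Vegfc and Vegfd. It stood at 20.6, 20.3 and 19.3 normalised CPM in 12ON livers, against 45.6, 54.3 and 60.6 in group 12 (log2 fold change -1.42 ± 0.27, adjusted p = 0.000542). In the OFF groups it stood at 29.6, 23.6 and 31.8 CPM in 1OFF, 22.4, 20.04 and 40.4 in 2OFF, 33.1, 68.6 and 49.04 in 3OFF and 41.7, 53.9 and 41.2 in 7OFF. Flt4 was even across 12ON and uneven across 2OFF and 3OFF, where the highest library had about the double of the lowest. It rose against 12ON in 3OFF (1.32 ± 0.26, adjusted p = 0.00183) and in 7OFF (1.18 ± 0.26, adjusted p = 0.00221). These were the largest differences of the 10 genes from 12ON in both groups, and its standard errors were also the largest.

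Gpr182 (ENSMUSG00000058396, chromosome 10, 127747276 to 127751732, minus strand) encodes an atypical chemokine receptor of sinusoidal and lymphatic endothelium. It measured 19.5, 19.2 and 21.0 normalised CPM in 12ON livers, against 47.2, 40.6 and 44.3 in group 12 (log2 fold change -1.15 ± 0.14, adjusted p = 1.35e-05). The values in the OFF groups were 24.2, 23.7 and 23.6 CPM in 1OFF, 23.7, 18.6 and 28.7 in 2OFF, 25.2, 32.5 and 31.2 in 3OFF and 27.2, 34.5 and 37.3 in 7OFF. All 12 OFF libraries lay below group 12, and those of 1OFF, 3OFF and 7OFF lay above 12ON. Gpr182 rose against 12ON in 3OFF (0.58 ± 0.14, adjusted p = 0.00597) and in 7OFF (0.73 ± 0.14, adjusted p = 0.000651). It shares 60 of its 3954 exonic bases with Zbtb39, whose counts were 28% to 59% of those of Gpr182.

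Of the junction genes, Pecam1 (ENSMUSG00000020717, chromosome 11, 106654217 to 106750628, minus strand) encodes an adhesion molecule at contacts between endothelial cells. It stood at 16.4, 14.6 and 19.6 normalised CPM in 12ON livers, against 31.1, 26.4 and 32.7 in group 12 (log2 fold change -0.83 ± 0.13, adjusted p = 9.57e-05). The OFF groups held 22.2, 21.7 and 18.6 CPM in 1OFF, 20.5, 19.9 and 23.9 in 2OFF, 23.3, 27.6 and 27.8 in 3OFF and 19.5, 24.0 and 24.6 in 7OFF. The 2OFF and 3OFF libraries lay above 12ON, and 1OFF and 7OFF each overlapped it by 1 library. Pecam1 rose against 12ON in 3OFF (0.64 ± 0.13, adjusted p = 0.00173) and in 7OFF (0.43 ± 0.13, adjusted p = 0.0133). The 7OFF call ended without 12ON replicate 1 or 2 or 7OFF replicate 3 (adjusted p up to 0.0895).

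Cdh5 (ENSMUSG00000031871, chromosome 8, 104101625 to 104144502, plus strand) encodes VE-cadherin, the adhesion protein of endothelial junctions. It measured 35.3, 26.3 and 29.4 normalised CPM in 12ON livers, against 71.1, 52.6 and 64.0 in group 12 (log2 fold change -1.04 ± 0.16, adjusted p = 8.28e-05). Its levels were 36.01, 31.5 and 38.3 CPM in 1OFF, 33.2, 31.2 and 43.5 in 2OFF, 40.2, 50.9 and 56.7 in 3OFF and 35.5, 40.6 and 43.5 in 7OFF. The 3OFF libraries lay clear above 12ON, while the lowest 7OFF library and the highest 12ON library nearly met. Cdh5 rose against 12ON in 3OFF (0.70 ± 0.16, adjusted p = 0.00373). In 7OFF the difference of 0.39 ± 0.16 missed the threshold (adjusted p = 0.0547), and it passed without any 1 of 12 replicate 2, 12ON replicate 1, 2OFF replicate 3, 3OFF replicate 1 or 7OFF replicate 1 (adjusted p down to 0.0328).

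**Figure D2:**
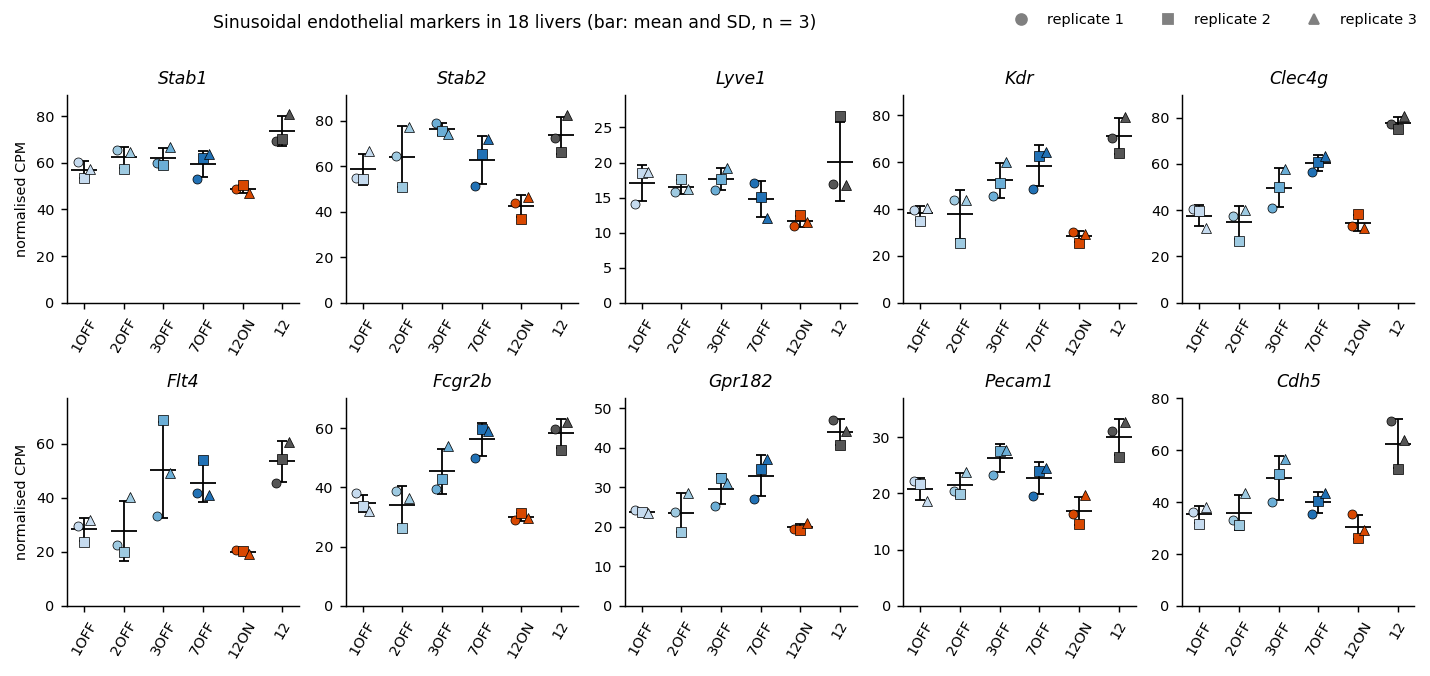
Normalised CPM of each sinusoidal gene in every library, 1 panel per gene, with the groups along the horizontal axis the mean as a long bar and the SD as an error bar. In all 10 panels the 3 libraries of 12ON lie below the 3 of group 12, and the spread within a group differs by gene: Flt4 ran from 19.3 to 20.6 CPM in 12ON and from 45.6 to 60.6 in group 12, and Cdh5 from 26.3 to 35.3 in 12ON and from 52.6 to 71.1 in group 12.

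The second comparison asked how the OFF groups, labelled with other days after injury, differed from 12ON. In 1OFF the median log2 fold change of the 10 genes was 0.28, and none passed edgeR's test, where 0.00562% of all genes were called in either direction. At an unadjusted p under 0.05 there were 5 of the 10, against 14.3% of all genes, and DESeq2 called 0. The 1OFF libraries lay wholly above 12ON for 7 of the 10, against 12.4% of all genes. In 2OFF the median was 0.35 and again none passed edgeR's test, where 0.230% of all genes were called in either direction. At an unadjusted p under 0.05 there were again 5, against 17% of all genes, and DESeq2 called 2. Ranges lay wholly above 12ON for 4 of the 10, against 9.29% of all genes.

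Replicate 2 stood apart within 2OFF. The summed level of the 10 genes was 294 CPM there, beside 366 and 415 in replicates 1 and 3. Without it, Stab1, Stab2 and Kdr passed the test in 2OFF against 12ON, with adjusted p-values of 0.0254, 0.00856 and 0.0156. In the 12ON livers the summed level ran from 276 to 287 CPM, against 529 to 604 in group 12.

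In 3OFF all 10 genes rose against 12ON (median log2 fold change 0.62), and all 10 had ranges wholly above 12ON. Of all tested genes 15.3% were called higher in this comparison and 25.1% had ranges wholly above. Flt4, Kdr and Stab2 rose the most, and Stab1 the least. In 7OFF 8 of the 10 rose, all but Lyve1 and Cdh5, with a median of 0.65, where 21.3% of all genes were called higher. Ranges lay wholly above 12ON for 8 of the 10, against 26.2% of all genes. With library totals only, 3 of the 10 passed in 3OFF (median 0.29, against -0.31 for all genes) and 4 in 7OFF (median 0.25, against -0.41 for all genes). Under that scaling 5.27% and 7.50% of all genes were called higher in 3OFF and in 7OFF. Stab1, Lyve1 and Cdh5 then stood slightly below 12ON in 7OFF, and none of the 3 passed.

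Set against group 12, the OFF livers had low sinusoidal genes at 1 and 2 days and only a few at 3 and 7 days. In 1OFF 8 of the 10 were lower, all but Stab2 and Lyve1 (median log2 fold change -0.79), where 16.3% of all genes were called lower. The same 8 had ranges wholly below group 12, against 23.7% of all genes. In 2OFF 7 were lower, all but Stab1, Stab2 and Lyve1 (median -0.79), where the share of all genes was 16.9%. These 7 and Stab1 had ranges wholly below group 12, against 21.8% of all genes. Flt4 lost its 1OFF call without 12 replicate 3 or 1OFF replicate 2 (adjusted p up to 0.0668) and its 2OFF call without 2OFF replicate 1 or 2 (up to 0.0507). Scaled by library totals, 5 of the 10 passed as lower in both 1OFF and 2OFF, where 5.63% and 6.27% of all genes did. The mitochondrial share as a term left 5 and 4 of the 10, where 3.68% and 3.91% of all genes were called lower.

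In 3OFF Clec4g (log2 fold change -0.65 ± 0.14, adjusted p = 0.00676) and Gpr182 (-0.57 ± 0.14, adjusted p = 0.0118) were lower than in group 12, and the other 8 did not pass (median of the 10, -0.30). The share of all genes called lower was 7.79%, and with library totals only Clec4g alone of the 10 passed, where 3.69% of all genes did. Ranges lay wholly below group 12 for 4 of the 10, those 2 with Stab1 and Kdr, against 16.3% of all genes. Gpr182 lost its call without 3OFF replicate 1 (adjusted p = 0.0628). In 7OFF Cdh5 was lower (-0.65 ± 0.16, adjusted p = 0.0272), and it was the 1 of the 10 that passed (median -0.33), where 3.19% of all genes were called lower. Ranges lay wholly below for 5 of the 10 (Stab1, Clec4g, Gpr182, Pecam1 and Cdh5), against 11.5% of all genes. That call ended without 12 replicate 1 or 3 or 7OFF replicate 1 or 2 (adjusted p up to 0.108). It also ended with library totals only, with the mitochondrial share as a term, and when the 2 groups were fitted alone.

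Whether the 10 genes differed between the last and the first OFF group was tested directly. Fcgr2b (log2 fold change 0.70 ± 0.14, adjusted p = 0.00163), Clec4g (0.68 ± 0.14, adjusted p = 0.00250), Kdr (0.61 ± 0.17, adjusted p = 0.0150) and Gpr182 (0.47 ± 0.14, adjusted p = 0.0199) were higher in 7OFF than in 1OFF. Of all tested genes 14.8% were called higher. These 4 and Flt4 had 7OFF libraries wholly above those of 1OFF, 5 of the 10, against 21.5% of all genes. For Stab1, Stab2, Pecam1 and Cdh5 the differences were 0.06 ± 0.09, 0.10 ± 0.15, 0.12 ± 0.13 and 0.18 ± 0.16, and for Lyve1 it was -0.20 ± 0.17, with no call. Flt4 differed by 0.69 ± 0.26 (adjusted p = 0.0593). It passed without 2OFF replicate 2 or 3 or 3OFF replicate 1 or 2 (adjusted p down to 0.0215). Kdr lost its call without 1OFF replicate 2 (adjusted p = 0.0629), and Gpr182 without any 1 of the 1OFF libraries or 7OFF replicate 2 or 3 (up to 0.0794). Under scaling by library totals, Fcgr2b (0.44) and Clec4g (0.41) still passed as higher, and Lyve1 passed as lower (-0.48, adjusted p = 0.0223), where 5.31% of all genes were called higher and 29.4% lower.

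**Figure D3:**
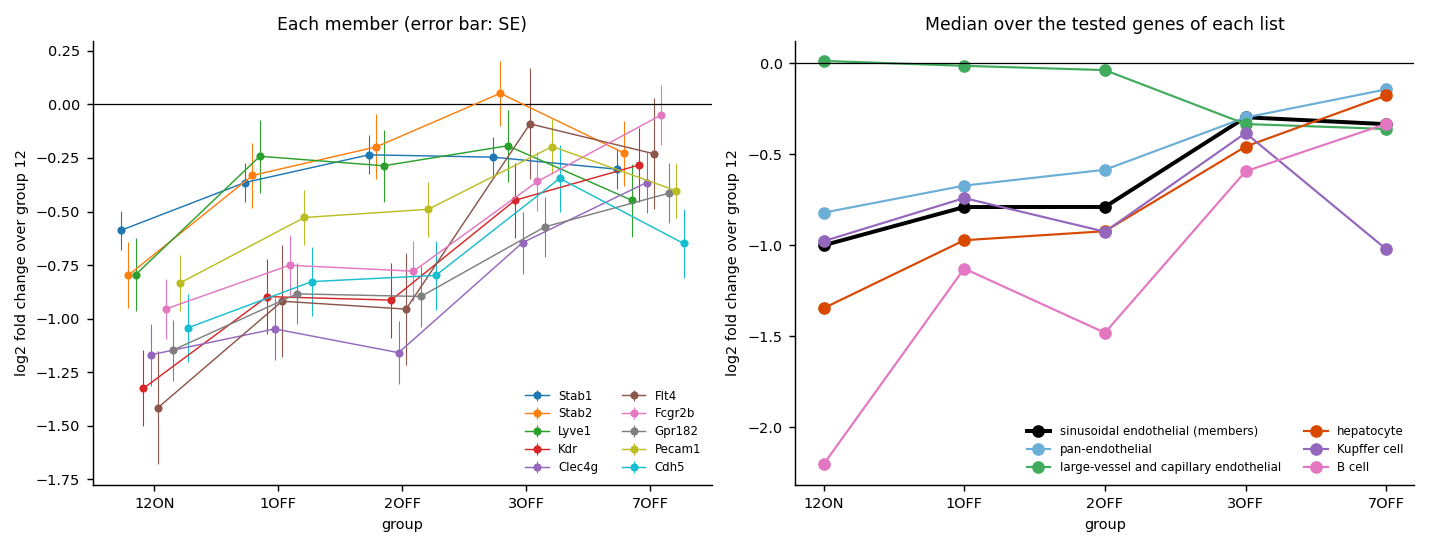
Log2 fold change of each sinusoidal gene relative to group 12, in 12ON and in the 4 OFF groups, with standard errors (left), and the median of 6 marker lists on the same scale (right). In the left panel points lie between -0.59 and -1.42 in 12ON and between -0.05 and -0.65 in 7OFF, where Fcgr2b is nearest to 0 and Cdh5 farthest from it.

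A ratio of each gene to the pan-endothelial pair Pecam1 and Cdh5 within the same library is nearly free of the scaling between libraries. The log2 ratio of Kdr to the mean of that pair was 0.33 ± 0.05 in 12ON, against 0.71 ± 0.12 in group 12, with no overlap, so Kdr fell by more than the pair. Stab1 stood at 1.10 ± 0.21 in 12ON, against 0.76 ± 0.18 in group 12, and Stab2 at 0.89 ± 0.04, against 0.76 ± 0.13, both with every 12ON library higher. Kdr was thus the 1 of the 8 other genes with ranges wholly below, and Stab1 and Stab2 the 2 with ranges wholly above. Over all tested genes, 2.98% had this ratio wholly below and 80.6% wholly above. The ratios of Lyve1, Clec4g, Flt4, Fcgr2b and Gpr182 overlapped between 12ON and group 12.

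Fcgr2b had a ratio to the pair of 0.89 ± 0.04 in 7OFF, against 0.42 ± 0.08 in group 12 and 0.41 ± 0.22 in 12ON. Its 3 7OFF libraries, at 0.84 to 0.92, lay above all other 15 libraries, of which the highest was a 12ON library at 0.66. The ratio of Kdr was also higher in 7OFF, at 0.94 ± 0.06, with no overlap with 12ON or group 12. In level neither gene stood above group 12 in 7OFF, with log2 fold changes of -0.05 for Fcgr2b and -0.28 for Kdr. Those of the pair were -0.40 for Pecam1 and -0.65 for Cdh5, of which only Cdh5 passed the test. Against 12ON, 5 of the 8 genes had ratios wholly above in 7OFF (Stab2, Kdr, Flt4, Fcgr2b and Gpr182), where 6.56% of all genes did. Against group 12, 4 of the 8 did (Stab1, Stab2, Kdr and Fcgr2b), where 58.1% of all genes did.

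In 1OFF and 3OFF the ratios to the pair differed in both directions from those of group 12. Clec4g and Gpr182 stood lower. Their ratios in 1OFF were 0.46 ± 0.17 and -0.18 ± 0.04, against 0.84 ± 0.15 and 0.03 ± 0.09 in group 12, with no overlap for either, where 2.65% of all genes lay wholly below. In 3OFF they were 0.45 ± 0.07 and -0.28 ± 0.07, also wholly below group 12, where 3.27% of all genes were. Stab1 and Stab2 stood higher in 1OFF, at 1.06 ± 0.04 and 1.09 ± 0.19, against 0.76 ± 0.18 and 0.76 ± 0.13 in group 12, both wholly above, where 72.5% of all genes were. In 3OFF Stab2 alone of the 8 was wholly above, by 0.33 on the log2 scale, where 29.6% of all genes were. For 2OFF the log2 differences in ratio from group 12 were -0.53 for Clec4g, -0.27 for Gpr182, 0.40 for Stab1 and 0.42 for Stab2. In 7OFF Clec4g, at 0.99 ± 0.08, and Gpr182, at 0.12 ± 0.07, overlapped group 12.

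**Figure D4:**
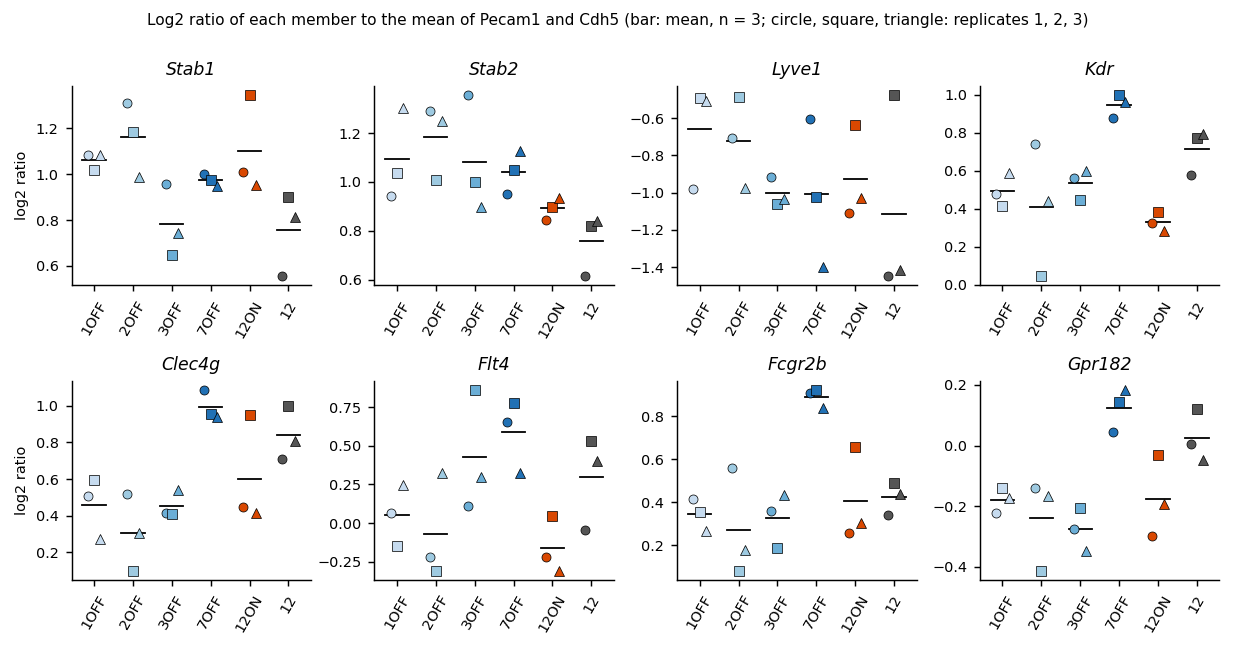
Log2 ratio of each of 8 sinusoidal genes to the mean of Pecam1 and Cdh5 in every library, by group, with the mean as a bar and a vertical scale of its own in each panel. The 7OFF points of Fcgr2b, at 0.84 to 0.92, stand above those of all other groups, and the 12ON points of Kdr, at 0.28 to 0.38, stand below those of group 12, at 0.58 to 0.79.

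Levels of different genes were compared per kilobase of exon. In 12ON livers Clec4g had the highest level, at 14.02 CPM per kb, followed by Cdh5 at 7.61, Fcgr2b at 5.18 and Gpr182 at 5.03, and the lowest were Pecam1 at 2.71 and Flt4 at 2.44. In group 12 the order began with Clec4g at 31.5 CPM per kb, Cdh5 at 15.7, Gpr182 at 11.1 and Fcgr2b at 10.1, and ended with Flt4 at 6.49 and Pecam1 at 4.83. The middle of the order in group 12 held Stab2 at 8.41, Kdr at 7.90, Lyve1 at 7.72 and Stab1 at 7.13, whose ranges over the 3 mice overlapped.

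Over the 18 libraries the 10 genes did not move as 1. The root mean square difference of each gene's centred log2 level from the mean of the other 9 was lowest for Gpr182, at 0.12, and highest for Flt4 and Lyve1, at 0.33 and 0.34. Outside the list, the 6 genes of at least 4 CPM whose centred log2 levels were nearest to the mean of the 10 were Itih2, Tcn2, Copz2, Serpind1, Gm11131 and Gimap6, out of 11539 genes, at distances of 0.09 to 0.11. Itih2 and Serpind1 encode plasma proteins that hepatocytes secrete. In 12ON against group 12 the 6 had log2 fold changes of -0.88, -1.19, -1.05, -0.86, -1.04 and -1.05 in that order, as their choice by likeness to the 10 over the same libraries leads to, so these values are a description only. The endothelial genes Adgrl4 and Flt1 ranked 10 and 11 by the same distance.

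Further endothelial genes were counted in the same comparison of 12ON with group 12, in which 22.5% of all tested genes were lower and 23.8% higher. Of 15 other sinusoidal genes, 12 were lower and 0 higher (median log2 fold change -0.78), among them Oit3 (-1.26), Ehd3 (-1.26) and the transcription factor Maf (-0.98). Of 20 pan-endothelial genes, 14 were lower and 0 higher (median -0.82), led by the phosphatase Ptprb (-1.03) and the adhesion receptors Adgrl4 (-0.99) and Adgrf5 (-0.92). Of 15 genes of large vessels and other capillaries, 3 were lower and 1 higher (median 0.01), with P-selectin Selp at -1.26 and the Notch target Hey1 at 1.36. Of 4 genes listed as lymphatic markers 2 were lower (median 0.00), Prox1 at -0.40 and podoplanin Pdpn at -1.21. That count fell to 1 or 0 without any 1 library of the 2 groups except 12ON replicate 2. In whole liver the RNA of these 4 genes, Prox1 among them, need not come from lymphatic vessels, and its source was not tested. With library totals only, 6 of the 15 other sinusoidal and 8 of the 20 pan-endothelial genes passed as lower, where 7.87% of all genes did. The large-vessel list then had 1 lower and 3 higher (median 0.50) and the lymphatic list 2 higher (median 0.49), with Prox1 slightly above 0 and not called. Under that scaling the median of all tested genes was itself 0.49, so both lists stood at the level of all genes.

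With TMM scaling, the ligands and partners of the VEGF receptors were called in both directions, at counts to be read beside the same 22.5% and 23.8% of all genes. Of the 11 tested genes of the VEGF and angiopoietin pathway, 5 were lower and 2 higher in 12ON (4 higher without 3OFF replicate 1). With library totals only, 4 were lower and 5 higher, where 7.87% of all genes were called lower and the median of all genes was 0.49. Vegfa, the ligand of Kdr made by hepatocytes among other cells, fell to 43.4 CPM in 12ON, against 126 CPM in group 12 (log2 fold change -1.54 ± 0.16, adjusted p = 2.89e-06). Its co-receptor Nrp1 had a log2 fold change of -1.496 and the decoy receptor Flt1 one of -1.05, both called lower. Vegfb, a ligand of Flt1, rose by 1.24 and Angpt1, which activates the endothelial receptor Tek, by 1.58. Vegfc, a ligand of Flt4, had a log2 fold change of -0.01 ± 0.15 (adjusted p = 0.975). With library totals only it passed as higher (0.48, adjusted p = 0.0318), at a value near the median of all genes, 0.49.

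Of 6 tested hyaluronan genes, 2 were lower and 2 higher in 12ON (1 higher without 12 replicate 1 or 12ON replicate 2). These counts and those of the Fc receptors are to be read beside 22.5% of all genes lower and 23.8% higher. The hyaluronidases Hyal1 and Hyal2 changed by -1.96 and -0.43, the synthase Has3 by 0.48, and Hmmr, a hyaluronan-binding protein of the mitotic spindle, by 3.37. Under library totals, 1 was lower and 3 higher, where 7.87% of all genes were lower and the median of all genes was 0.49. Hyal2 was then slightly above 0 and not called. Among 5 other Fc receptor genes, 2 were lower: Fcgrt (-0.65), the recycling receptor for IgG, and the signalling chain Fcer1g (-0.50). The IgG receptors Fcgr1, Fcgr3 and Fcgr4 had log2 fold changes of -0.71 ± 0.28, -0.09 ± 0.15 and 0.01 ± 0.17 and did not pass. Scaled by library totals, none of the 5 was lower, and Fcgr3 and Fcgr4 were higher, beside the same median of 0.49 for all genes. Fcgr1 passed as lower under several alternatives, among them DESeq2 (adjusted p = 0.0337).

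**Figure D5:**
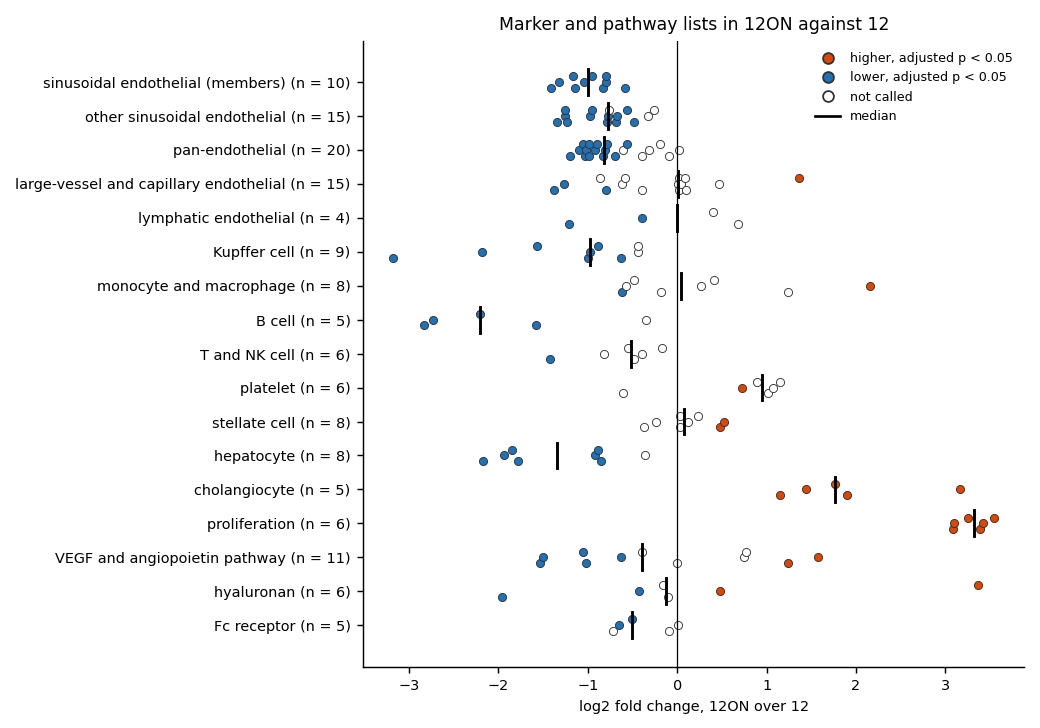
Log2 fold change in 12ON livers relative to group 12 for every tested gene of each list, 1 row per list, with the median as a bar. The sinusoidal genes all lie below 0, with a median of -0.999, and the lists of large-vessel and lymphatic genes have medians near 0.

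Markers of other cells in the liver were called as well, at counts to be read beside 22.5% of all genes lower and 23.8% higher. Of 9 Kupffer cell genes, 7 were lower in 12ON (median -0.98), and their summed level was 762 to 1218 CPM in 12ON, against 1562 to 2010 in group 12. Of 5 B cell genes, 4 were lower (median -2.20), with sums of 5.11 to 7.63 CPM in 12ON, against 10.6 to 13.3 in group 12. The 8 monocyte and macrophage genes had a median of 0.04. The 6 platelet genes had a median of 0.95, or 0.0827 without 12ON replicate 3, with sums of 21.8 to 67.9 CPM in 12ON, against 19.2 to 26.2 in group 12. Scaled by library totals, 4 Kupffer and 4 B cell genes were lower, and 3 monocyte and macrophage and 4 platelet genes were higher. Of all genes 7.87% were then called lower, and the median of all genes was 0.49. With the mitochondrial share as a term, 1 Kupffer gene and 2 B cell genes were lower. Their part in the levels of Stab1, Lyve1, Fcgr2b and Pecam1 was not tested.

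The sinusoidal and the Kupffer genes had unlike counts of calls in 7OFF, and the difference between the lists was not tested. The summed Kupffer level was 748 to 792 CPM there, against 1562 to 2010 in group 12. Of the 9 genes 6 were lower (median -1.02), or 2 without 12 replicate 1 or 7OFF replicate 1, where 3.19% of all genes were lower. Against 12ON, no Kupffer gene was higher in 7OFF and 1 was lower (median -0.05, or 0.13 with 0 lower without 12ON replicate 1). Of the 10 sinusoidal genes 8 were higher, where 21.3% of all genes were. With library totals only 4 of the 10 were higher, where 7.50% of all genes were, and Stab1, Lyve1 and Cdh5 stood slightly below 12ON.

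Lists of the other cells also shifted in 12ON against group 12, where 22.5% of all genes were lower and 23.8% higher. Of 8 hepatocyte genes, 7 were lower (median -1.35, with albumin Alb at -1.93), and their summed level was 50290 to 61680 CPM in 12ON, against 150500 to 163000 in group 12. Of 5 cholangiocyte genes 5 were higher (median 1.76), and of 6 proliferation genes 6 were higher (median 3.32). The 8 stellate cell genes had a median of 0.08 and the 6 T and NK cell genes one of -0.52. With library totals only these medians were 0.56 and -0.03, beside 0.49 for all genes. The mitochondrial share as a term left 4 hepatocyte genes, 7 of the 15 other sinusoidal and 12 of the 20 pan-endothelial genes lower, and 3 cholangiocyte and 5 proliferation genes higher. In 7OFF the hepatocyte genes were higher than in 12ON for 7 of the 8 (median 1.06), and 10 of the 15 other sinusoidal genes (median 0.58) and 12 of the 20 pan-endothelial genes (median 0.65) were higher as well, against 4, 3 and 3 with library totals only. Of all genes 21.3% were higher in that comparison, and 7.50% with library totals only. The part of these shifts in cell makeup in the levels of the 10 genes was not tested.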

How the data were processed

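Per the labels, the 18 libraries are poly-A RNA of mouse liver, read from a single end over 50 bases. Per the submitters' processing notes, which give no versions, the tools were Trim Galore and TopHat2 and the genome build mm10. The deposited values are raw read counts per gene, made with featureCounts 1.5.0-p1 on Ensembl 82 exons (GRCm38) without strand, a read being counted for each gene it overlapped by 10 bases, per the file headers. Depth was 23.1 to 75.3 M counts, and replicates differed well beyond sampling noise (chi-square per gene 33.9 to 310).

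The count tests used edgeR 4.0.16 (R 4.3.3): filterByExpr at a minimum count of 10, TMM, and a robust quasi-likelihood fit of all 18 libraries (12 residual degrees of freedom, biological coefficient of variation 0.202), with two-sided tests in 10 comparisons. Standard errors are the log2 fold change over the root of F, and log2 levels have a prior of 0.5 CPM. The members, lists and alternatives were chosen with earlier results of these data known. Up to 3 genes of a list per direction were named, by smallest p in 12ON against 12, or 2 as values where none passed; the remaining VEGF and Fc receptor genes named, and the 10th and 11th genes by likeness, were chosen after their values were seen. The replicates are separate mice. Alternatives were other scalings (RLE, upper quartile, library totals), no filter, DESeq2 1.42.0, the 2 groups alone, a replicate block, terms for Xist above or below 50 CPM and for the mitochondrial share, and each library left out.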

Additional observations from a re-analysis of the deposited data

Results flagged for a closer look

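The difference from 12ON was not the same at the first and the last OFF day for 4 of the 10 sinusoidal genes, by the test of 7OFF against 1OFF, which is the test of that difference since both are set against the same 12ON libraries. The log2 difference between 7OFF and 1OFF was 0.702 for Fcgr2b, 0.683 for Clec4g, 0.614 for Kdr and 0.47 for Gpr182, each with an adjusted p under the threshold in edgeR's quasi-likelihood test. In 3 of 3 libraries of 7OFF each of these 4 genes was above every 1OFF library. Of all tested genes 14.8% were called higher in this comparison and 21.5% had ranges wholly above. Kdr lost its call without 1OFF replicate 2, and Gpr182 without any 1 of 5 libraries. With library totals only, the calls of Fcgr2b and Clec4g remained. Whether a sinusoidal gene had a lone outlying library was not tested, since groups of 3 are too small for that.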

How the results depend on the processing

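With RLE scaling and with no filter the count of the 10 genes called was the same in all 10 comparisons, and leaving out any 1 library kept all 10 lower in 12ON against group 12. Mice of the same replicate number showed little likeness across groups (correlations of -0.18 to 0.44, median 0.05), beside a median of -0.01 for different numbers. Whether the numbers pair the mice was not tested. With the replicate block 1 gene was called in 2OFF against 12ON in place of 0, and every other count stayed within 1.5 times. With library totals only, the counts called were 6 in 12ON against 12, 3 in 3OFF and 4 in 7OFF against 12ON, and 5, 1 and 0 in 1OFF, 3OFF and 7OFF against 12; of all genes, 7.87% were then called lower in 12ON against 12, in place of 22.5%. A term for the mitochondrial share left 5, 4, 1 and 0 genes lower in 1OFF, 2OFF, 3OFF and 7OFF against 12. A term for Xist gave 4 in 3OFF and 2 in 7OFF against 12, DESeq2 gave 2 in 2OFF against 12ON and 3 in 7OFF against 12, and the 2 groups alone gave 0 in 7OFF against 12. Leaving out 1 library gave, against 12ON, 0 to 3 genes at 2 days and 7 to 10 at both 3 and 7 days; against 12, it gave 7 to 8, 6 to 8, 1 to 4 and 0 to 2 genes at 1, 2, 3 and 7 days; and 7OFF against 1OFF gave 2 to 5.

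Directions that reversed were mostly of differences not called in the main fit. Among them, however, were calls: Stab1 in 7OFF against 12ON (0.29, higher), and Prox1 (-0.40) and Hyal2 (-0.43) in 12ON against 12, both lower. These calls reversed with library totals only and did not pass there. With library totals only they were, in 12ON against 12, Prox1 (0.0948), Hyal2 (0.0612), Vegfc (0.48) and Fcgr3 (0.40); against 12ON, Clec4g in 1OFF (-0.0294) and 2OFF (-0.14) and Stab1 (-0.13), Lyve1 (-0.0863) and Cdh5 (-0.0138) in 7OFF; against 12, Lyve1 in 1OFF (0.12), Stab1 (0.11), Stab2 (0.14) and Lyve1 (0.0897) in 2OFF, Flt4 in 3OFF (0.0663) and Fcgr2b in 7OFF (0.0253); and in 7OFF against 1OFF, Stab1 (-0.20), Stab2 (-0.15), Pecam1 (-0.14) and Cdh5 (-0.0802). The term for the mitochondrial share gave Flt4 0.27 in 3OFF against 12 and Fcgr3 0.10 in 12ON against 12, where Vegfc stood at 0.00196 with no filter. Leaving out 1 library gave Clec4g -0.10 to 0.15 in 2OFF against 12ON, Lyve1 -0.36 to 0.0145 in 1OFF and -0.31 to 0.0635 in 3OFF against 12, Stab2 -0.0184 to 0.14 and Flt4 -0.38 to 0.14 in 3OFF against 12, Fcgr2b -0.12 to 0.0291 in 7OFF against 12, Stab2 -0.00517 to 0.23 in 7OFF against 1OFF, and Vegfc -0.0598 to 0.0875 and Fcgr4 -0.0804 to 0.0571 in 12ON against 12. The causes were not tested. With 3 mice per group, small differences such as those of Stab1 stayed near the threshold.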
